A study of Homo sapiens with 9 samples.

Results

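Genes that carry amino acids across the cell surface were followed, 10 in all: SLC7A5, SLC3A2, SLC7A6, SLC43A1, SLC1A5, SLC1A4, SLC38A1, SLC38A2, SLC7A1 and SLC6A9. They were taken by name from the 19257 genes in the deposited tables, and all 10 were among the 12574 genes with enough counts to be tested. The cells are labelled A549, an established human lung adenocarcinoma line, and all of them had been given a Lenti-CRISPR-V2 plasmid. In NC (genotype label WT) the plasmid was empty. In OGT_KO it was directed at OGT, the enzyme that attaches O-GlcNAc to proteins, and in TR11B_KO at TR11B, taken here to be osteoprotegerin, a secreted decoy receptor encoded by TNFRSF11B. Each group had 3 libraries, which the titles call biological replicates. No label says whether they came from separate cultures, or how many clones or guides stand behind a knockout. The p-values therefore reflect only how far libraries of the same group lie apart, possibly for technical reasons. That spread was estimated over all groups together, so the scatter within TR11B_KO also enters the p-values of OGT_KO against NC. Clone and knockout effects cannot be told apart. In bulk RNA, fewer cells that express a gene and less mRNA per cell cannot be told apart either. Cells were grown in DMEM with serum.

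Large neutral amino acids such as leucine enter many tumour cells through system L, in which the transporting light chain SLC7A5 (LAT1) pairs with the glycoprotein SLC3A2 (CD98 heavy chain) and exchanges them for intracellular glutamine. That glutamine is taken up by sodium-coupled carriers, among them the exchanger SLC1A5 (ASCT2) and the system A carriers SLC38A1 and SLC38A2, which concentrate small neutral amino acids. Cells short of amino acids raise several of these genes through the transcription factor ATF4, while MYC is known to raise others, and the leucine supply feeds the growth kinase complex mTORC1.

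Library totals ran from 38327508 to 42245970 counts. TR11B_KO replicate 2 stood apart, with a TMM scaling factor of 0.784 where the other libraries had 0.951 to 1.159, and 14128 genes with a count against 14581 to 14954. OGT mRNA was 27.1 ± 2.45 CPM (counts scaled by the TMM-corrected library total; SD, n = 3) in NC and 24.1 ± 3.74 in OGT_KO, a difference that did not pass the test (adjusted p = 0.607 in edgeR), and 13.6 ± 2.98 in TR11B_KO. It fell in TR11B_KO against NC by 0.99 ± 0.21 on the log2 scale (adjusted p = 0.00393) and was higher in OGT_KO than in TR11B_KO (adjusted p = 0.00882). TNFRSF11B was counted at most 15 times in an NC library (13, 15 and 3), at most once in OGT_KO and at most 3 times in TR11B_KO, too few to be tested. Transcript levels therefore do not check either knockout, and OGT_KO and TR11B_KO stand below for the libraries labelled so. Of 8 markers listed for the A549 line, the epithelial keratins KRT8, KRT18 and KRT7 had 2720 CPM or more in every library. The other 5 did not: KRT19 was at most 0.484 CPM, ALDH1A1 at most 0.158, AKR1B10 at most 0.0952 and AKR1C1 at most 0.143, and AKR1C2 had no count, although reads of the near-identical AKR1C genes can be lost in counting. The measured RNA thus had epithelial keratins but lacked most of the markers listed for this line, in NC as in both knockouts. Summed fibroblast markers reached at most 0.871 CPM, immune markers 0.227 and endothelial markers 0.485.

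The genes lie on 7 chromosomes (positions from RefSeq, GRCh38.p14). SLC7A5 lies on the minus strand of chromosome 16 from 87830023 to 87869507, SLC3A2 on the plus strand of chromosome 11 from 62856109 to 62888860, SLC1A5 on the minus strand of chromosome 19 from 46774883 to 46788594, and SLC7A1 on the minus strand of chromosome 13 from 29509414 to 29595688. SLC38A1 (46183063 to 46269043) and SLC38A2 (46358188 to 46372773) are neighbours on the minus strand of chromosome 12, with 89.1 kb between them. The others are SLC7A6 on chromosome 16 (68264526 to 68301819, plus strand), SLC43A1 on chromosome 11 (57484534 to 57515702, minus strand), SLC1A4 on chromosome 2 (64988479 to 65023865, plus strand) and SLC6A9 on chromosome 1 (43996483 to 44031462, minus strand).

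In GENCODE release 29, exons of SLC7A6, SLC1A5, SLC7A5 and SLC6A9 overlap exons on the opposite strand, the longest shared stretches being 3371 bases with SLC7A6OS, 780 with AC008622.2, 271 with AC126696.2 and 219 with CCDC24. Without strand, reads from there cannot be assigned to one gene, and the sources used here do not give its use, so the values of SLC7A6 in particular are uncertain.

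The RefSeq promoter table held 17 windows for the 10 genes, one per annotated start, and the 250 bases before each start were searched on both strands for 3 motifs. The E-box CACGTG, a sequence that MYC can bind, was found in 3 of the 17 windows, against 6.34% of all 35116 windows of that length. The 3 windows belong to SLC7A5, SLC1A5 and SLC43A1, all of which fell in OGT_KO (below), and these sites are shown, chosen for that outcome, with the E-box in capitals. In that order the windows held 79.6, 69.2 and 60.8% G and C, against a median of 58.0% over all windows. The shares of windows with a match are not adjusted for base content. SLC6A9, which also fell in OGT_KO, had no E-box in its windows. The first line is the whole window before the SLC7A5 start, which holds no annotated exon (GENCODE), and the next 2 are stretches of 30 bases. The windows of both SLC1A5 sites lie inside the gene, before inner annotated starts, and hold 193 (E-box) and 91 (TGATGCAA) bases of SLC1A5 exons, and the window at the outermost SLC1A5 start had no match. The SLC43A1 window holds 84 bases of SLC43A1 exons. The last line shows TGATGCAA, a match in capitals to the ATF4-C/EBP motif TGATGNAA, which was found in 1 of the 17 windows (SLC1A5) against 3.14% of all. The antioxidant element core TGACNNNGC was found in 4 windows, against 10.9%. Sequences are RefSeq GRCh38.p14, 5′ to 3′ on the strand of the gene.
SLC7A5, chr16:87869508-87869757, minus strand: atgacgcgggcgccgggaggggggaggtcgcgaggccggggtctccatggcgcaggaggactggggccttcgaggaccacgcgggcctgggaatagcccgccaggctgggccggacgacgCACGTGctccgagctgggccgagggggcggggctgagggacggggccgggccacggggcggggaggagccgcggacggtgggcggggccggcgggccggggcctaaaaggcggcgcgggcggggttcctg
SLC1A5, chr19:46787326-46787355, minus strand: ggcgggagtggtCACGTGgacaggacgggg
SLC43A1, chr11:57515797-57515826, minus strand: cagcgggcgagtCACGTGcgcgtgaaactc
SLC1A5, chr19:46784893-46784922, minus strand: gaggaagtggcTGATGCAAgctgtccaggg
A match describes the letters only. No window of SLC38A1 or SLC38A2, the genes that rose in OGT_KO, held any of the 3 motifs, which says only that these letters are not in the windows searched.

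Levels of different genes were compared per length, as the authors' FPKM (fragments per kilobase of gene, scaled to library size). SLC7A5, SLC3A2 and SLC1A5 dominated in every library. In NC, SLC7A5 was at 314 ± 18.2 FPKM (SD, n = 3), SLC3A2 at 272 ± 2.43 and SLC1A5 at 183 ± 15.9, and the ranges of these 3 did not overlap. The other 7 genes lay between 1.32 FPKM (SLC38A1) and 7.14 FPKM (SLC7A6) and together made up 3.36 to 3.77% of the summed FPKM of the 10. Among them, SLC7A6 and SLC7A1 (6.94) overlapped, as did SLC7A1 and SLC6A9 (5.54), and SLC43A1 (1.89) and SLC1A4 (1.82).

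The order changed at the top. SLC7A5 was above SLC3A2 in all 3 NC libraries and below it in all 6 knockout libraries: the means were 165 ± 4.16 against 200 ± 7.8 FPKM in OGT_KO, and 171 ± 49.9 against 235 ± 34.4 FPKM in TR11B_KO, where the ranges overlapped. SLC38A2 ranked 7 of 10 in NC (4.38 ± 0.252 FPKM) and 4 of 10 in OGT_KO (12 ± 1.94), and SLC7A1 ranked 5 in NC and 9 in TR11B_KO (1.64 ± 0.75). The 10 genes together took 0.292 to 0.324% of all counts in NC, 0.18 to 0.19% in OGT_KO, and 0.153, 0.245 and 0.196% in TR11B_KO. Both knockouts thus lay below every NC library in the share of raw counts from these transporters. These shares use library totals without TMM factors. TR11B_KO replicate 2 had a factor of 0.784, so its place below NC can change with the scaling.

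**Figure D1:**
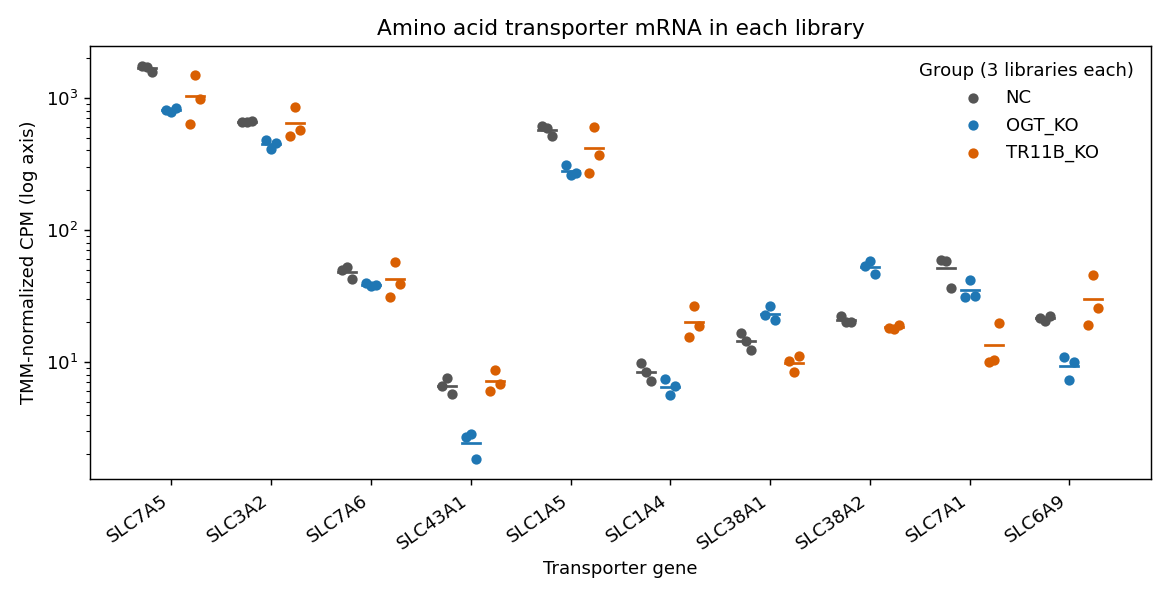
TMM-normalized CPM (log axis) of the 10 transporter genes in each library, with 3 points per group and a line at the group mean. SLC7A5, SLC1A5, SLC6A9 and SLC43A1 are lower in OGT_KO than in every NC library and SLC38A1 and SLC38A2 are higher, whereas SLC7A1 is lowest and SLC1A4 highest in TR11B_KO, and TR11B_KO replicate 2 is the highest TR11B_KO point for 7 of the 10 genes.

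OGT_KO was compared with NC to ask how transporter mRNA changes with OGT knockout. SLC7A5 and SLC1A5, which import leucine and glutamine, fell, as did SLC43A1 and SLC6A9, and the system A carriers SLC38A1 and SLC38A2 rose. Of the 10 genes, 4 fell and 2 rose (adjusted p under 0.05 in edgeR over all tested genes), where 10.1% of all tested genes fell and 8.26% rose, 18.3% together. The groups did not overlap for 8 of the 10, against 49.8% of all tested genes. The median log2 fold change of the 10 was −0.56, against 0.03 for all. The 10 genes were chosen with earlier results of these data known. Here and in the comparisons below, their counts beside the shares of all genes are therefore a description and cannot show an excess among transporters.

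SLC7A5, the light chain that carries leucine, was at 1750, 1703 and 1562 CPM in NC and at 813.4, 784.9 and 835.0 in OGT_KO. The groups were far apart and the OGT_KO libraries close together, with a fall of 1.04 ± 0.24 (SE) on the log2 scale, 2.06-fold (adjusted p = 0.00869). SLC3A2, the heavy chain that brings SLC7A5 to the membrane, was at 656.3, 653.5 and 661.8 CPM in NC and at 478.8, 411.8 and 451.5 in OGT_KO. These groups did not overlap either, but the log2 fold change of −0.56 ± 0.19 did not pass (adjusted p = 0.0587). It passed in 7 of 18 alternative settings, among them DESeq2 (adjusted p = 0.0484) and the fits without TR11B_KO replicate 1 (adjusted p = 0.023) or 2 (adjusted p = 0.00054), and ran from −0.61 to −0.44 over all 18, with adjusted p from 7.96e-05 to 0.186. SLC43A1, a system L carrier that works without a heavy chain (LAT3), was at 6.523, 7.604 and 5.698 CPM in NC and 2.684, 2.837 and 1.833 in OGT_KO. It had the largest fall of the 10, 1.43 ± 0.25 (adjusted p = 0.00174), from counts of 223 to 323 down to 77 to 126. SLC7A6, a light chain of SLC3A2 that exchanges cationic for neutral amino acids (y+LAT2), went from 47.9 ± 5.07 to 38.6 ± 1.16 CPM, a log2 fold change of −0.31 ± 0.21 that did not pass (adjusted p = 0.318). SLC7A6 passed in 1 of 18 alternatives, the edgeR fit of only these 2 groups (adjusted p = 0.0324).

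SLC1A5, the glutamine exchanger, was at 611.5, 589.6 and 515.8 CPM in NC and 307.2, 260.3 and 267.3 in OGT_KO. Every OGT_KO library lay under every NC library, and the fall of 1.04 ± 0.24, 2.06-fold, was as large as that of SLC7A5 (adjusted p = 0.00884). Its paralog SLC1A4 (ASCT1), which exchanges alanine, serine and cysteine, overlapped between the groups, with 8.47 ± 1.35 CPM in NC and 6.52 ± 0.893 in OGT_KO (log2 fold change −0.38 ± 0.24, adjusted p = 0.299). SLC6A9, the glycine transporter GlyT1, was at 21.36, 20.5 and 22.25 CPM in NC and 10.85, 7.34 and 9.951 in OGT_KO, a fall of 1.19 ± 0.28 (adjusted p = 0.0102) with wide separation. SLC7A1 (CAT1), which imports arginine and lysine, overlapped: NC replicate 3 (36.33 CPM) was below OGT_KO replicate 2 (42.04), and the log2 fold change was −0.56 ± 0.27 (adjusted p = 0.163). It too passed in 1 of 18 alternatives, the edgeR fit of only these 2 groups (adjusted p = 0.00653).

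SLC38A2, the system A carrier SNAT2, moved the other way. It was at 22.17, 20.2 and 20.11 CPM in NC and 53.68, 57.84 and 45.97 in OGT_KO, a rise of 1.33 ± 0.17, 2.52-fold (adjusted p = 0.000211), and it passed in all 18 alternatives. SLC38A1 (SNAT1) rose less, from 16.65, 14.29 and 12.32 CPM to 22.68, 26.34 and 20.62, again without overlap (0.69 ± 0.21, adjusted p = 0.0327). The SLC38A1 call was lost in 8 of 18 alternatives, among them the omission of any 1 of the 6 NC and OGT_KO libraries, with adjusted p up to 0.138. Without OGT_KO replicate 2, 3 of the 10 genes passed (SLC7A5, SLC43A1 and SLC38A2), while SLC1A5 (−0.996, adjusted p = 0.0509), SLC6A9 (−1.04, adjusted p = 0.0648) and SLC38A1 (0.58, adjusted p = 0.138) kept their direction.

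**Figure D2:**
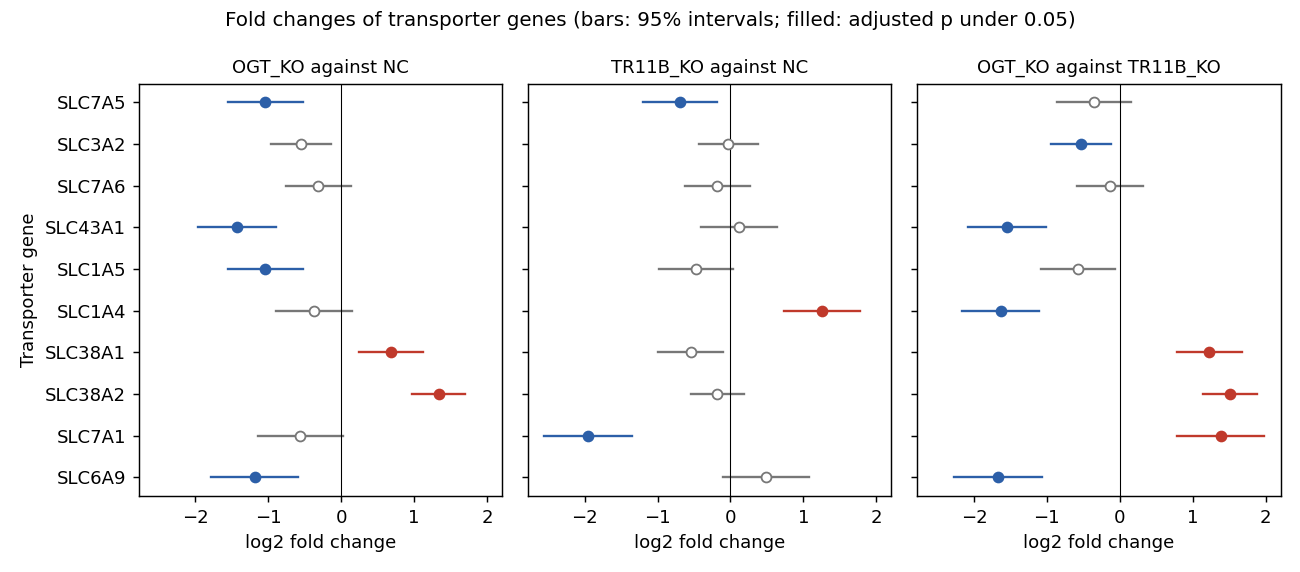
Log2 fold change of each transporter gene in the 3 comparisons, with 95% intervals from the edgeR fit; filled points have an adjusted p under 0.05, red for higher and blue for lower in the group named first. In OGT_KO against NC, 4 genes are filled in blue and 2 in red; in TR11B_KO against NC, SLC1A4 is filled in red and SLC7A5 and SLC7A1 in blue; and SLC1A4 and SLC7A1 have opposite colours in the direct comparison.

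TR11B_KO was compared with the same 3 NC libraries to ask how the genes change with TR11B knockout. Here the arginine carrier SLC7A1 fell and the small exchanger SLC1A4 rose, and most of the others did not pass. Of the 10 genes, 1 rose and 2 fell, where 13.2% of all tested genes rose and 14.3% fell. The 3 calls together are near the 27.6% of all genes called. Groups did not overlap for 5 genes, against 40.9% of all tested genes. The median log2 fold change of the 10 was −0.18, against −0.01 for all. Both knockouts share the NC libraries, so their values are not independent.

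SLC7A1 was at 59.62, 58.5 and 36.33 CPM in NC and at 10.07, 10.32 and 19.62 in TR11B_KO. All 3 TR11B_KO libraries lay below the lowest NC library, and the fall of 1.95 ± 0.28, 3.86-fold, was the largest change of any of the 10 genes in either comparison with NC (adjusted p = 0.000455). SLC1A4 was at 9.868, 8.357 and 7.18 CPM in NC and at 15.33, 26.63 and 18.57 in TR11B_KO, with no overlap and a rise of 1.25 ± 0.24, 2.38-fold (adjusted p = 0.00244). Both genes passed in all 18 alternatives. SLC7A5 was at 636.5, 1495 and 985 CPM in TR11B_KO, below the 1562 CPM of the lowest NC library in each case but more than 2-fold apart among themselves. Its fall of 0.69 ± 0.24 passed narrowly (adjusted p = 0.0448) and was lost in 14 of 18 alternatives, with adjusted p up to 0.141 and a value of −0.37 without TR11B_KO replicate 1 (adjusted p = 0.131).

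SLC1A5 was at 269.4, 601.7 and 371.1 CPM in TR11B_KO. Replicate 2 lay among the NC libraries and replicates 1 and 3 below them, and the log2 fold change of −0.47 ± 0.24 did not pass (adjusted p = 0.158). Without TR11B_KO replicate 2, the library that stood apart, 5 of the 10 genes passed: SLC1A4 was higher and SLC7A1, SLC7A5 (−1.01, adjusted p = 5.98e-06), SLC1A5 (−0.80, adjusted p = 9.99e-05) and SLC7A6 (−0.42, adjusted p = 0.0398) were lower. Without TR11B_KO replicate 1, SLC1A5 moved the other way, to −0.17 (adjusted p = 0.528). SLC3A2 was at 511.5, 854.6 and 568.6 CPM, on both sides of NC, and its log2 fold change of −0.03 had a 95% interval from −0.44 to 0.38 (adjusted p = 0.93). SLC6A9 was likewise spread, at 19.02, 45.3 and 25.51 CPM (log2 fold change 0.48 ± 0.28, adjusted p = 0.206), and had 0.79 without TR11B_KO replicate 1 (adjusted p = 0.0167) but 0.093 without replicate 2 (adjusted p = 0.745).

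The system A carriers did not pass in TR11B_KO. SLC38A2 was at 18.14, 17.83 and 19.16 CPM, just under every NC library (log2 fold change −0.18, 95% interval −0.55 to 0.19, adjusted p = 0.462). SLC38A1 was at 10.12, 8.416 and 11.12 CPM, also under every NC library (−0.54 ± 0.21, adjusted p = 0.0637). SLC43A1 was at 6.046, 8.674 and 6.787 CPM, within the NC range or just above it (0.12, 95% interval −0.40 to 0.63, adjusted p = 0.754). SLC7A6 was at 31.04, 56.91 and 39.14 CPM, on both sides of NC (−0.18, 95% interval −0.63 to 0.27, adjusted p = 0.554).

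Fold changes in TR11B_KO ran with gene length, with a rank correlation across 12574 genes of −0.313 against 0.066 in OGT_KO; genes are not independent replicates. The lengths the authors used for the 10 genes ran from 2440 bases (SLC3A2) to 11045 (SLC38A1), against a median of 3965 for tested genes. With an offset for length, SLC7A1 (7482 bases) fell by 1.71 (adjusted p = 0.00105) and SLC1A4 (4705 bases) rose by 1.40 (adjusted p = 0.00191) in TR11B_KO, while SLC7A5 (5366 bases) had −0.51 (adjusted p = 0.141). For SLC38A1, the longest of the 10, the offset moved the value in TR11B_KO from −0.54 to −0.28 (adjusted p = 0.307) and in OGT_KO from 0.69 to 0.51 (adjusted p = 0.0771).

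OGT_KO and TR11B_KO were then compared directly, which tests where the knockouts differ. Of the 10 genes, 3 were higher and 4 lower in OGT_KO, where 16.7% of all tested genes were higher and 16.5% lower, 33.2% together. The groups did not overlap for 7 genes, against 44.9% of all, and the median of the 10 was −0.44, against 0.06 for all. SLC38A2 was higher in OGT_KO by 1.51 ± 0.17, 2.86-fold (adjusted p = 3.53e-05), SLC38A1 by 1.23 ± 0.21 (adjusted p = 0.000644) and SLC7A1 by 1.38 ± 0.28 (adjusted p = 0.00212). SLC6A9 was lower in OGT_KO by 3.19-fold (−1.67 ± 0.28, adjusted p = 0.000644), SLC1A4 by 3.09-fold (−1.63 ± 0.25, adjusted p = 0.00029) and SLC43A1 by 2.92-fold (−1.54 ± 0.25, adjusted p = 0.000499). These 6 differences passed in all 18 alternatives. Fold changes ran with gene length here too (rank correlation 0.333 across genes), and with the length offset SLC38A1 was higher by 0.80 (adjusted p = 0.008). SLC3A2 was lower in OGT_KO by 0.53 ± 0.19 (adjusted p = 0.0474), a call lost in 13 of 18 alternatives and with the value −0.30 without TR11B_KO replicate 2 (adjusted p = 0.0701) and −0.72 without replicate 1 (adjusted p = 0.00546). SLC7A5, SLC1A5 and SLC7A6 did not pass. For SLC7A5 the difference was −0.36, with a 95% interval from −0.86 to 0.15 (adjusted p = 0.264), and it was −0.66 (adjusted p = 0.00938) without TR11B_KO replicate 1 but −0.03 (adjusted p = 0.883) without replicate 2. For SLC1A5 it was −0.57, with an interval from −1.08 to −0.07 (adjusted p = 0.0775), and it was −0.85 (adjusted p = 0.00304) without TR11B_KO replicate 1 but −0.23 (adjusted p = 0.209) without replicate 2.

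Ratios between partners or close relatives within a library do not depend on how libraries are scaled, but can move with gene length where fold changes do. Of 12 comparisons of 4 ratios, 10 had groups that did not overlap. Each of these had an exact two-sided permutation p = 0.1, the smallest that 3 libraries against 3 allow, and an adjusted p = 0.12 over the 12, so none could pass. The FPKM ratio of SLC7A5 to its partner SLC3A2 was 1.21, 1.18 and 1.07 in NC and 0.772, 0.867 and 0.841 in OGT_KO. The TR11B_KO values were 0.566, 0.795 and 0.788. The light chain thus exceeded the heavy chain per length in every NC library and in no knockout library. On the log2 scale the ratio was lower by 0.48 in OGT_KO and by 0.71 in TR11B_KO than in NC (log2 difference −0.48 and −0.71), and the knockouts overlapped each other (exact permutation p = 0.3). SLC7A5 is the longer gene of the pair, and with the length offset the TR11B_KO fold changes were −0.51 for SLC7A5 and −0.15 for SLC3A2, closer together than the −0.69 and −0.03 without it. The ratio of the light chain SLC7A6 to SLC7A5 was 0.0225, 0.0241 and 0.0214 in NC, and in OGT_KO it was 0.0389, 0.0382 and 0.036. TR11B_KO had 0.0386, 0.0302 and 0.0315, so that every knockout library lay above NC.

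The ratio of SLC1A4 to SLC1A5 separated all 3 groups. It was 0.0108, 0.00951 and 0.00934 in NC and 0.0162, 0.0145 and 0.0164 in OGT_KO. It was highest in TR11B_KO, at 0.0382, 0.0297 and 0.0336. Its log2 difference from NC was 0.67 in OGT_KO and 1.77 in TR11B_KO. The ratio of SLC38A1 to SLC38A2 was highest in NC (0.326, 0.307 and 0.266), lowest in OGT_KO (0.183, 0.198 and 0.195) and between them in TR11B_KO (0.242, 0.205 and 0.252). TR11B_KO replicate 2, which was high for SLC7A5 in CPM, was close to replicate 3 in the ratio of SLC7A5 to SLC3A2, where replicate 1 was low.

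**Figure D3:**
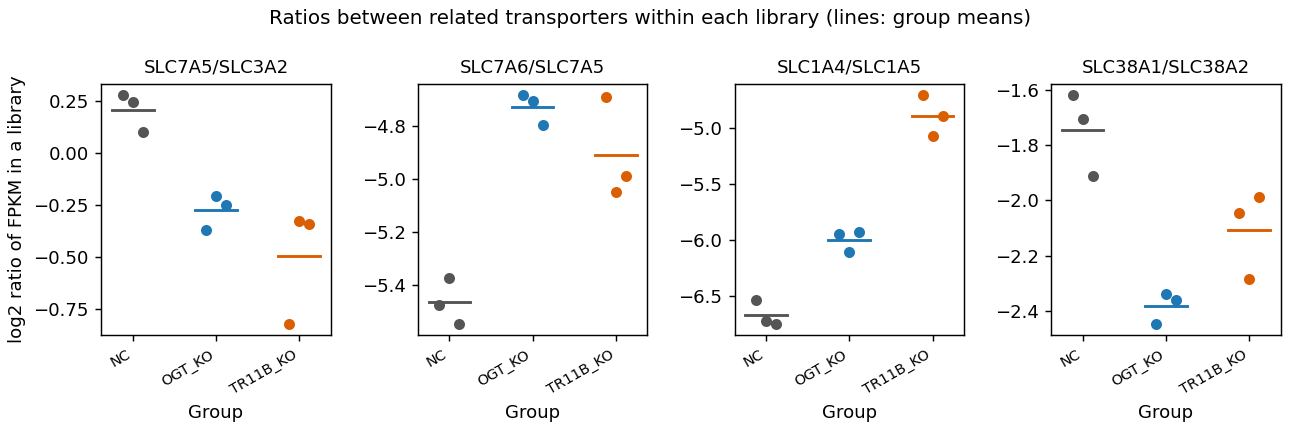
Log2 ratio of FPKM between related transporters in each library, one panel per pair with its own axis, points for libraries and lines for group means. The SLC7A5/SLC3A2 ratio is above 0 in the 3 NC libraries and below 0 in the 6 knockout libraries, and SLC1A4/SLC1A5 separates the 3 groups.

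The genes around each transporter were examined after these values had been seen, as a description. Of the 28 tested genes within 5 Mb of SLC7A1, 8 fell in TR11B_KO and the others did not pass, with a median log2 fold change of −0.77, where 14.5% of the 12296 tested genes with a position fell. Over all of chromosome 13 but SLC7A1, with those 28 neighbours counted again, 64 of 197 tested genes fell in TR11B_KO (32.5%) and 4 rose. Their median was −0.66, and in OGT_KO 6 of them fell and 13 rose. SLC7A1 itself, at −1.95, lay well below these medians. Near SLC1A5, 56 of 211 tested genes (26.5%) fell in OGT_KO, where 10.2% of placed genes fell, and the median was −0.41. In TR11B_KO, 61 of the same 211 rose and 17 fell (median 0.40), whereas SLC1A5 had −0.47. A low median in OGT_KO was not particular to the surroundings of SLC1A5. Near SLC1A4, which did not pass, 7 of 41 tested genes fell in OGT_KO (17.1%), with a median of −0.40. The 69 tested neighbours of SLC38A1 and the 71 of SLC38A2 each had a median of −0.02 in OGT_KO, where both carriers rose. Of these neighbours, 14 rose in either window (20.3% and 19.7%), against 8.29% of placed genes, and 10 fell (14.5% and 14.1%). The risers near each carrier include the other carrier, and both windows hold largely the same genes, so they are not separate observations. Neighbours of SLC7A5 had a median of 0.10 in OGT_KO and 0.21 in TR11B_KO. The part of position in these changes was not tested.

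**Figure D4:**
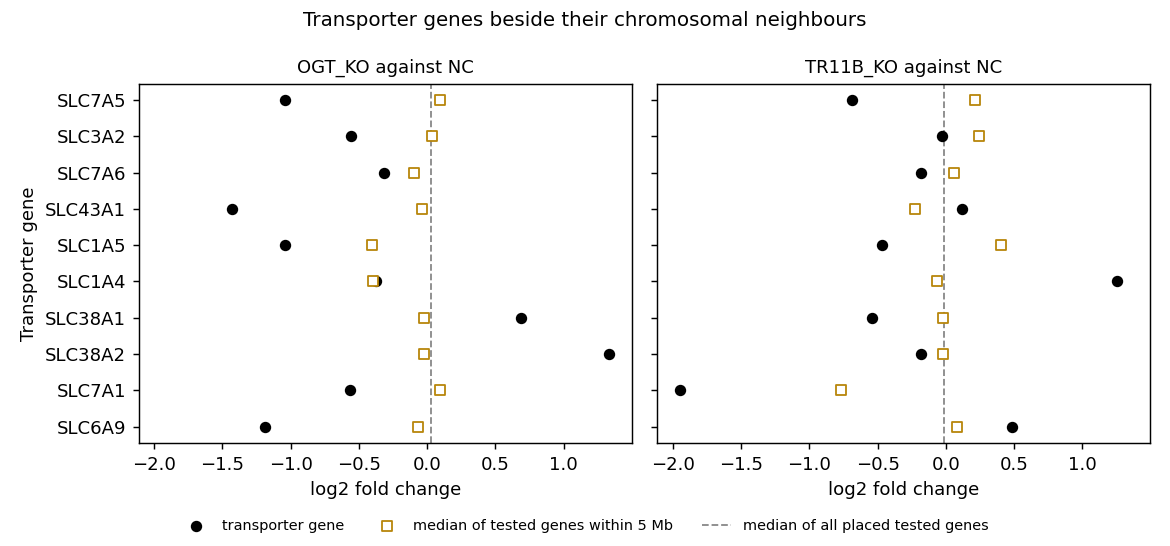
Log2 fold change of each transporter gene (filled circles) beside the median of the tested genes within 5 Mb of it (open squares), in each knockout against NC; the dashed line is the median of all placed tested genes. The neighbours of SLC7A1 have a median of −0.77 in TR11B_KO. In OGT_KO those of SLC1A5 have −0.41 and those of SLC1A4 −0.40, while the neighbours of SLC38A2, SLC7A5 and SLC6A9 lie near the dashed line.

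The genes closest in pattern were sought among the 4436 genes whose log2 CPM averaged 4 or more, by the root mean square difference of log2 CPM over the 9 libraries after each gene was centred. For SLC7A5, whose log2 CPM spanned 1.46, the nearest were SYMPK (0.10), GTPBP1 (0.11) and SLC1A5 itself (0.13). For SLC1A5 they were ERCC2 (0.10), SYMPK (0.11) and TONSL (0.11), of which ERCC2 (45349837 to 45370573) and SYMPK (45815410 to 45863147) lie on chromosome 19, as SLC1A5 does.

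MYC and ATF4, regulators known to act on transporter genes, were measured in the same libraries. MYC mRNA was at 105.3, 101.4 and 81.07 CPM in NC and 32.05, 38.41 and 33.85 in OGT_KO. The TR11B_KO libraries had 41.18, 12.9 and 32.37 CPM. MYC fell in both, by 1.46 ± 0.31 (adjusted p = 0.00523) and by 1.73 ± 0.31 (adjusted p = 0.00147). ATF4, which binds amino acid response elements, was at 270.3, 280.7 and 228.9 CPM in NC and 186.5, 186.5 and 175.3 in OGT_KO, without overlap but short of the threshold (log2 fold change −0.51 ± 0.19, adjusted p = 0.0838), and at 239.2, 139.7 and 201.8 CPM in TR11B_KO (−0.43 ± 0.19, adjusted p = 0.117). ATF4 protein is set largely by translation, which these data do not measure. The part of MYC or ATF4 in the transporter changes was not tested.

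All genes of the lists that follow are given by the edgeR calls over all tested genes and by log2 fold changes. Their counts stand beside 8.26% of all tested genes that rose and 10.1% that fell in OGT_KO (18.3% together), and 13.2% and 14.3% (27.6%) in TR11B_KO, and nothing particular to a list is drawn from them. Fold changes in TR11B_KO ran with gene length (rank correlation −0.313). The values of the list genes carry no length offset, and the part of length in them was not tested. Among 19 listed response genes of amino acid shortage, 18 were tested. In OGT_KO 4 rose and 3 fell (median 0.07), and in TR11B_KO 5 rose and 3 fell (median −0.14). PHGDH, which commits glycolytic carbon to serine, fell in OGT_KO by 1.36 ± 0.20 (adjusted p = 0.000614) and rose in TR11B_KO by 2.16 ± 0.21 (adjusted p = 3.06e-05). In OGT_KO the stress factor ATF3 rose by 1.32, CEBPB fell by 0.78 and ATF5 fell by 0.68. The other risers in OGT_KO, named after their values were seen, were PSPH (0.97), DDIT3 (0.93) and TRIB3 (0.75). In TR11B_KO the mTORC1 inhibitor DDIT4 rose by 1.24 and the secreted glycoprotein STC2 by 1.08, and CEBPB fell by 0.96. Also called there, and likewise named afterwards, were NUPR1 (2.63, from 0.2033 CPM in NC), CHAC1 (1.09), EIF2AK4 (−0.82) and XPOT (−0.78). ASNS, the asparagine synthetase that ATF4 is known to raise, had only 8 to 45 counts per library.

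Few other surface transporters were expressed. Of 19 listed, 4 had enough counts to be tested, and their adjusted p in edgeR ran from 0.0599 to 0.85 in the comparisons with NC. The taurine transporter SLC6A6 (27.1 CPM in NC) had the smallest, in TR11B_KO (log2 fold change −0.50), and SLC43A2 (LAT4), a system L relative of SLC43A1, was at 32.0 CPM in NC. SLC7A11, the cystine carrier that also pairs with SLC3A2, had 9 to 58 counts per library (at most 1.386 CPM), and SLC7A8 (LAT2) had 0 counts in 7 libraries and 1 in the other 2. SLC7A5 was therefore the light chain of SLC3A2 seen in quantity among those listed. SLC7A6 had only 0.0214 to 0.0241 of the FPKM of SLC7A5 in NC, and its values are uncertain because of the overlap with SLC7A6OS.

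Inside the cell, 9 lysosomal transporters were tested. SLC36A4 rose in OGT_KO by 0.94, and SLC36A1, a proton-coupled exporter, fell in TR11B_KO by 1.49, though its groups overlapped. Each was the only one of the 9 called in that comparison, a share below the 18.3% and 27.6% of all genes called. Of 9 tested mitochondrial carriers, 1 fell in OGT_KO, a share below the 18.3% of all genes called, and 3 fell and 1 rose (SLC25A29, by 0.61) in TR11B_KO, where 27.6% of all genes were called. The ornithine carrier SLC25A15 fell in both (by 1.17 and 1.18), and the aspartate-glutamate carriers SLC25A12 and SLC25A13 fell in TR11B_KO by 1.64 and 1.37.

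Of 14 tested genes that use glutamine and branched-chain amino acids, 5 fell in OGT_KO and the other 9 did not pass (median −0.54), where 10.1% of all tested genes fell. In TR11B_KO 1 fell and the other 13 did not pass (median 0.09), a share below the 14.3% of all genes that fell. The branched-chain transaminases BCAT1, cytosolic, and BCAT2, mitochondrial, fell in OGT_KO, with log2 fold changes of −2.85 ± 0.25 (adjusted p = 1.1e-05) and −1.07 ± 0.15 (adjusted p = 0.000418). BCKDHA, a subunit of the dehydrogenase that follows them, fell by 1.23 ± 0.22, and GLUD1, glutamate dehydrogenase, by 1.13 ± 0.30. The gene that fell in TR11B_KO was GLUL, glutamine synthetase (−0.90 ± 0.19, adjusted p = 0.00437).

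Of 23 tested genes of amino acid sensing by mTORC1, 4 rose and 2 fell in OGT_KO, and 4 rose and 4 fell in TR11B_KO, where 18.3% and 27.6% of all tested genes were called. The arginine sensor gene CASTOR1 fell by 1.22 in OGT_KO while its relative CASTOR2 rose by 1.02, and RRAGD, a Rag GTPase, rose by 1.96 from 0.6745 CPM. In TR11B_KO, without a length offset, MTOR fell by 1.38, and the Ragulator subunit genes LAMTOR2, LAMTOR4 and LAMTOR5 rose by 1.22, 0.89 and 0.64. LAMTOR2 rose in OGT_KO too, by 0.58 (adjusted p = 0.0325). Of 8 tested CD98 partners and turnover genes, 3 rose in OGT_KO (8.26% of all tested genes rose), and 1 rose and 4 fell in TR11B_KO (27.6% of all called). LAPTM4B, a lysosomal protein that binds the SLC7A5-SLC3A2 pair, rose in OGT_KO by 0.94 and fell in TR11B_KO by 0.58, and the ubiquitin ligase gene NEDD4 rose by 0.80 and fell by 0.80. USP9X, a deubiquitinase, rose by 0.81 and fell by 0.95. The integrin gene ITGA3 fell in TR11B_KO by 0.54 (−0.20 in OGT_KO, adjusted p = 0.492). The gene that rose in TR11B_KO, named after its value was seen, was the arrestin-domain gene ARRDC3 (1.27 ± 0.44, adjusted p = 0.0449), which had 1.25 ± 0.44 in OGT_KO (adjusted p = 0.0615).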

How the data were processed

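RNA from 9 libraries of cells labelled A549 was sequenced. The submitters' processing notes name HISAT, fastp, DESeq2, HTSeq and R 3.2.0 as tools and GRCh38 as the genome build. Roles, settings and the use of strand in counting are not stated in the sources at hand. The deposited count table holds whole-number counts per gene, not normalized, and the deposited FPKM table holds the authors' FPKM values for the same genes. The 10 genes and all gene lists were chosen with earlier results of these data known.

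The tests came from edgeR 4.0.16 (R 4.3.3) on the deposited counts: filterByExpr, TMM factors and the robust quasi-likelihood test on all 9 libraries, 1 mean per group, with Benjamini-Hochberg adjustment over 12574 genes. Each SE was obtained from the log2 fold change and the F value. The code was tested on simulated data. Named genes were the 10 transporters, the targeted genes, MYC, ATF4, ASNS, SLC7A11 and SLC7A8, up to 4 called genes per list and comparison with the smallest adjusted p, and the 3 most alike in pattern, which are not reported here for SLC3A2. Alternatives were DESeq2 1.42.0, limma 3.58.1 on log2(FPKM + 1), RLE factors, library totals, no filter, a minimum of 1 CPM in 3 libraries, fits of 2 groups, the replicate number as a block, a length offset and leaving out each library. The chi-square of counts between replicates was at least 9.54 per degree of freedom, so none was a copy. Ratios were compared by exact permutation tests.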

Additional observations from a re-analysis of the deposited data

How the results depend on the processing

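Of 540 values of the 30 fold changes (10 genes, 3 comparisons) under 18 alternatives each, 472 kept their direction and side of the threshold, 37 lost a call, 18 gained one and 13 reversed, all of the last for genes that did not pass in the first place. In TR11B_KO against NC, SLC3A2 was 0.044 with RLE factors, 0.044 with DESeq2 and 0.034 with the CPM filter, SLC43A1 was −0.051 with library totals and −0.029 in limma on log2(FPKM + 1), and SLC7A6 was 0.045 with the length offset. In OGT_KO against TR11B_KO, SLC7A6 was 0.16 with library totals and 0.15 in limma. When each library was left out in turn, these values ran from −0.25 to 0.177 for SLC3A2, −0.009 to 0.287 for SLC43A1 and −0.416 to 0.065 for SLC7A6 against NC, and from −0.36 to 0.11 for SLC7A6 between the knockouts. The number of the 10 genes called ran from 3 to 7 in OGT_KO, 2 to 5 in TR11B_KO and 6 to 9 between the knockouts with a library left out, and from 5 to 9, 2 to 4 and 6 to 8 in the other settings. All 12 ratio differences kept their sign when a library of the groups compared was left out. For the 10 whose groups did not overlap, the sign could not have changed. A ratio of CPM in place of FPKM differs only by the gene lengths and could not change the differences. No length offset was applied to the ratios. The calls over all genes ran from 1072 to 5095 (2303 as reported; the highest from the fit of 2 groups alone) in OGT_KO, 1813 to 4463 (3469) in TR11B_KO and 2401 to 5307 (4174) between the knockouts. Library totals alone gave 1369 higher and 890 lower genes in OGT_KO and 1180 and 2030 in TR11B_KO, with medians of 0.15 and −0.15, and 3084 and 1268 between the knockouts with a median of 0.31. The cause of these shifts was not tested. Replicate numbers showed no regular pairing of the samples, which does not exclude one. Deviations of same-numbered libraries correlated from −0.602 to 0.431, and not every library correlated best with its own number. With the replicate block, 5, 2 and 6 of the 10 genes passed, and SLC38A1 in OGT_KO (adjusted p = 0.0721), SLC7A5 in TR11B_KO (adjusted p = 0.0502) and SLC3A2 between the knockouts (adjusted p = 0.1) did not.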
